A study of Mus musculus with 9 samples.

Results

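Schwann cells are the glia of peripheral nerves: they ensheath axons, and some of them wrap axons in compact myelin. In the heart they accompany autonomic nerve fibres, most of which are thin, and many of these Schwann cells do not make myelin. The transcription factor Sox10 holds the cells in the glial lineage and, together with Egr2, turns on myelin genes. 8 genes used as Schwann cell markers are described here: the lineage regulator Sox10, the adhesion protein Cdh19, the receptor Gfra3, the calcium-binding protein S100b, the myelin proteins Mbp, Prx and Pmp22, and the potassium channel Kcna1. They are known markers, taken from the table by symbol with no threshold on a measured value. The set was put together with earlier results of these data known. All 8 were found among the 55401 rows of the deposited gene count table, and all 8 were among the 19051 genes with enough counts to be tested.

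RNA sequencing was done on total RNA of mouse hearts in 3 groups of 3 libraries. KO-TAC hearts came from mice with Myc floxed on both alleles and an inducible Cre driven by Tcf21, a gene of cardiac fibroblasts, after transverse aortic constriction (TAC, an operation on the aorta that raises the pressure the heart pumps against). TAC hearts were wild-type hearts after the same operation, and both operated groups carry a 12-week time in their titles. Control hearts were wild-type and are the sham group of the design. Their titles carry no time, so a difference in time cannot be told apart from load in comparisons with them. The mice were males of 8 to 12 weeks at the operation. Tamoxifen, at 45 mg/kg on 5 days, is described for activating Cre in the knockout line, and the labels do not say whether the wild-type mice were dosed. No knockout heart without TAC was analysed here, so tamoxifen, Cre and Myc deletion cannot be told apart, and the deletion is aimed at fibroblasts, not at Schwann cells. The labels do not tie each library to a separate mouse, and the p-values cover only the variation among these libraries.

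Total counts were 59702513 to 109162107 per library. The TAC hearts differed from one another more than the other hearts did: the median SD of log2 CPM over genes was 0.33 in KO-TAC, 0.604 in TAC and 0.171 in control hearts. CPM are counts scaled to a common library size, here with TMM factors. Myc, the targeted gene, was at 4.22, 1.87 and 4.75 CPM in KO-TAC hearts, 8.93, 6.22 and 14.2 CPM in TAC hearts and 2.15, 2.47 and 1.55 CPM in control hearts. The KO-TAC hearts lay below the TAC hearts, in the direction of the labels.

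The 8 markers did not move as a block. In KO-TAC hearts Sox10, Mbp and Kcna1 lay below the range of the control hearts, as 13.6% of all genes did, while Cdh19 lay on both sides of the control range and Pmp22 reached above it. In TAC hearts Pmp22 and Prx lay above the range of the controls and Sox10 below it, as 14.1% and 14% of all genes did. None of the 8 passed the edgeR quasi-likelihood test over all genes in any of the 3 comparisons, and none of the 19051 genes did (0%). These differences are therefore given as values. In whole-heart RNA fewer cells of a type and less RNA per cell cannot be told apart.

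**Figure D1:**
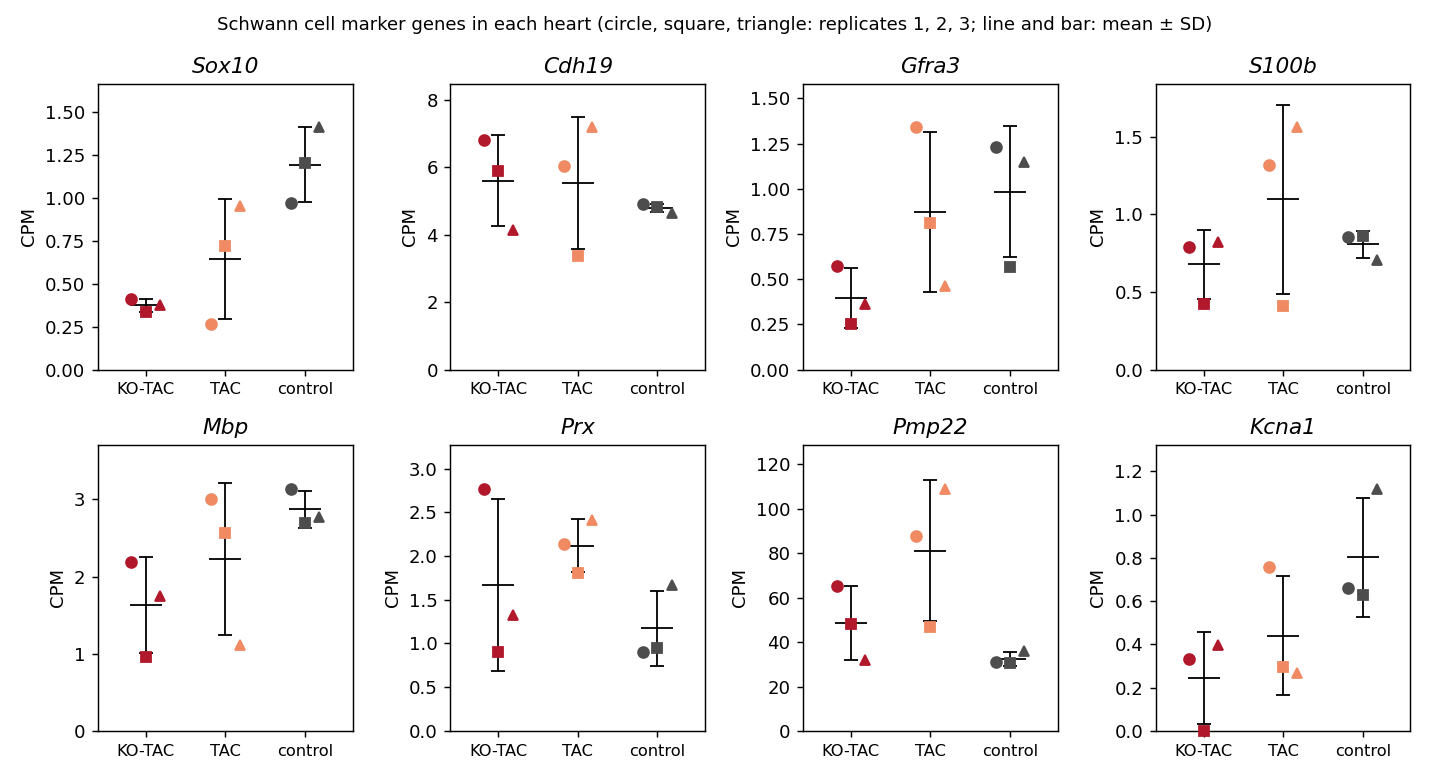
CPM of each marker (vertical axes, linear, from 0) in the 9 hearts. KO-TAC, TAC and control hearts run from left to right. Symbols give the replicates, and the line and bar give mean ± SD (n = 3). Sox10 in KO-TAC hearts (0.337 to 0.412 CPM) lies below all control hearts (0.969 to 1.41 CPM), while Pmp22 in TAC hearts (46.7 to 109 CPM) lies above all control hearts (30.5 to 36 CPM).

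Compared per length, the markers covered a wide span of levels. In control hearts Pmp22 stood at 13.8 ± 1.3 CPM per kilobase of exon (SD, n = 3), and Cdh19 followed at 1.12 ± 0.028 CPM per kilobase. S100b was at 0.543 ± 0.0584, Gfra3 at 0.491 ± 0.181, Sox10 at 0.391 ± 0.0724 and Mbp at 0.339 ± 0.0279 CPM per kilobase. Prx at 0.211 ± 0.0774 and Kcna1 at 0.168 ± 0.0581 CPM per kilobase were the lowest. Pmp22 and Cdh19 stood clear of the genes below them. From S100b down to Kcna1 the ranges of mean ± SD of neighbouring genes overlapped, except those of Mbp and Prx. Pmp22 is known from fibroblasts too, where it was found as a growth arrest gene, and the source of its level here was not tested.

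The labelled cell type was checked against other Schwann cell genes. Scn7a and Erbb3, a channel and a receptor of Schwann cells described further on, were read in all 9 hearts at 17.4 to 63.5 CPM and 5.15 to 18.3 CPM. Mag, an adhesion protein of myelin, was near 0, with 0.28, 0.239 and 0 CPM in KO-TAC, 0.0532, 0 and 0.185 CPM in TAC and 0.168, 0.0613 and 0.12 CPM in control hearts. Gjb1, a gap junction gene of myelinating Schwann cells, had no count in any library. Scn7a and Erbb3 were thus measured, and Mag and Gjb1 were at or near 0. Other genes of the same lists went the other way. Foxd3 and Gfap, of the list of Schwann lineage and non-myelinating cells, had 0 to 0.291 and 0 to 0.186 CPM. Cnp, of the myelin list, had 4.62 to 8.99 CPM. Which kind of Schwann cell the values come from was not tested. Of the oligodendrocyte markers, which share Mag with Schwann cells, Mog, Opalin and Olig2 had a mean under 0.1 CPM. Of the 4 markers of melanocytes, cells that also use Sox10, Tyr and Mlana were equally low and Pmel reached at most 0.492 CPM, while Dct was present at 0.874 to 11.2 CPM. The part of melanocytes in the Sox10 values was not tested.

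Sox10 (chromosome 15, 79154908 to 79165240, minus strand, GRCm38) encodes the transcription factor that keeps Schwann cells in the glial lineage. Its level was 0.412, 0.337 and 0.373 CPM in KO-TAC hearts, 0.266, 0.718 and 0.949 CPM in TAC hearts and 0.969, 1.2 and 1.41 CPM in control hearts. These values rest on 24 to 56 counts in KO-TAC, 20 to 82 in TAC and 75 to 118 in control libraries. Every operated heart, knockout or not, lay below every control heart, as for 6.8% of all genes. TAC replicate 1 was the lowest of the 9, and TAC replicate 3 came close to the lowest control. The log2 difference of KO-TAC from control was -1.67 (95% interval -2.78 to -0.55), 3.17-fold lower, with an edgeR adjusted p of 0.829. Over all genes, 0.955% had an unadjusted p this small or smaller in that comparison. Leaving out any of the 9 libraries gave log2 differences between -1.79 and -1.53, and over the alternatives the adjusted p ran from 0.0329 to 1. TAC against control gave -0.89 (-1.98 to 0.21; edgeR adjusted p = 0.311) and KO-TAC against TAC -0.78 (-1.89 to 0.33; edgeR adjusted p = 0.712).

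Cdh19 (chromosome 1, 110888326 to 110977584, minus strand) is a cadherin of Schwann cells and their precursors. The counts gave 6.8, 5.89 and 4.13 CPM in KO-TAC hearts, 6.03, 3.38 and 7.19 CPM in TAC hearts and 4.9, 4.83 and 4.66 CPM in control hearts. The control hearts fell within a narrow band that both operated groups straddled. KO-TAC differed from TAC by 0.02 on the log2 scale (95% interval -0.66 to 0.7), TAC from control by 0.21 (-0.47 to 0.89) and KO-TAC from control by 0.23 (-0.46 to 0.91), with edgeR adjusted p of 0.987, 0.7 and 0.912. The intervals reach less than a doubling or halving on either side. In each heart the ratio of Cdh19 to Sox10, both per kilobase, was 11.8, 12.4 and 7.89 in KO-TAC, 16.2, 3.36 and 5.4 in TAC and 3.6, 2.88 and 2.36 in control hearts. All KO-TAC ratios exceeded all control ratios, as they did for 84.5% of all tested genes set against Sox10, so this is not particular to Cdh19.

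Gfra3 (chromosome 18, 34689898 to 34720387, minus strand) encodes the receptor of artemin, a trophic factor of sympathetic neurons that signals through Ret. Its values were 0.574, 0.253 and 0.36 CPM in KO-TAC hearts, 1.34, 0.811 and 0.463 CPM in TAC hearts and 1.23, 0.567 and 1.15 CPM in control hearts. The KO-TAC values were low but met the lowest heart of each other group. KO-TAC differed from control by -1.30 (95% interval -2.52 to -0.08), 2.46-fold lower, with an edgeR adjusted p of 0.851. KO-TAC differed from TAC by -1.13 (-2.34 to 0.09; edgeR adjusted p = 0.668) and TAC from control by -0.17 (-1.37 to 1.02; edgeR adjusted p = 0.866). Its signalling partner Ret was at 3.79 ± 0.238 CPM in KO-TAC, 6.47 ± 4.7 CPM in TAC and 7.15 ± 0.478 CPM in control hearts (SD, n = 3). For Ret, KO-TAC lay below control without overlap (1.88-fold, edgeR adjusted p = 0.851), as for 13.6% of all genes. The ligand gene Artn had at most 0.236 CPM in any heart.

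S100b (chromosome 10, 76253853 to 76261159, plus strand) encodes a calcium-binding protein that is abundant in glia and is also made by adipocytes. S100b stood at 0.788, 0.422 and 0.823 CPM in KO-TAC hearts, 1.32, 0.406 and 1.56 CPM in TAC hearts and 0.853, 0.858 and 0.706 CPM in control hearts. TAC replicates 1 and 3 were the highest of the 9 and TAC replicate 2 the lowest, so the TAC range enclosed both other groups. No comparison passed (edgeR adjusted p = 0.622 to 0.946). The 5 adipocyte markers summed to 0.337 to 2.02 CPM in KO-TAC, 0.15 to 2.67 CPM in TAC and 0.103 to 0.904 CPM in control hearts, with Lep at 0. In TAC replicates 1 and 3, the hearts with the most S100b, the adipocyte sum was 2.67 CPM, the highest of the 9, and 0.15 CPM. The part of adipocytes in the S100b values was not tested.

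The myelin protein genes went different ways. Mbp (chromosome 18, 82475146 to 82585637, plus strand) encodes the protein that holds together the cytoplasmic faces of the myelin membrane. Its locus also gives golli transcripts outside myelinating cells, and 16 transcripts are annotated, whose reads the gene count adds together. It was counted at 2.19, 0.955 and 1.75 CPM in KO-TAC hearts, 3, 2.57 and 1.12 CPM in TAC hearts and 3.14, 2.7 and 2.77 CPM in control hearts. All KO-TAC hearts lay below all control hearts, and among TAC hearts replicate 3 stood apart on the low side. The log2 difference of KO-TAC from control was -0.81 (95% interval -1.76 to 0.14; edgeR adjusted p = 0.851). Against TAC it was -0.45 (-1.39 to 0.5; edgeR adjusted p = 0.771).

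Prx (chromosome 7, 27499324 to 27520214, plus strand) encodes periaxin, which ties the Schwann cell membrane to the surrounding basal lamina through Drp2 and dystroglycan. Prx was read at 2.77, 0.899 and 1.33 CPM in KO-TAC hearts, 2.14, 1.81 and 2.41 CPM in TAC hearts and 0.905, 0.95 and 1.67 CPM in control hearts. All TAC hearts lay above all control hearts, while KO-TAC hearts spread from below the lowest control to the highest value of the 9. The log2 difference of TAC from control was 0.85 (95% interval -0.17 to 1.87), 1.8-fold higher (edgeR adjusted p = 0.301). KO-TAC differed from TAC by -0.34 (-1.35 to 0.67; edgeR adjusted p = 0.816). The antisense gene Gm15541 shares 300 bases (5.38%) of the exons of Prx, and since no strand setting is given, reads there cannot be told apart. That gene itself held 10 to 26 counts in KO-TAC, 8 to 55 in TAC and 0 to 15 in control libraries.

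Pmp22 (chromosome 11, 63128982 to 63159547, plus strand) encodes a small membrane protein of compact myelin whose duplication in humans causes a hereditary neuropathy. Pmp22 reached 65.1, 48.2 and 31.9 CPM in KO-TAC hearts, 87.8, 46.7 and 109 CPM in TAC hearts and 30.9, 30.5 and 36 CPM in control hearts. All TAC hearts lay above all control hearts, and the KO-TAC hearts ran from the control level up into the TAC range. TAC exceeded control by 1.32 on the log2 scale (95% interval 0.55 to 2.09), 2.5-fold, with an edgeR adjusted p of 0.136. It passed with DESeq2 (adjusted p = 0.0109) and in edgeR without TAC replicate 2 (log2 difference 1.59, adjusted p = 0.0107), where 13.5% of all genes passed as higher and 14% as lower, and over the alternatives its adjusted p ran from 0.00116 to 0.399. KO-TAC differed from TAC by -0.75 (-1.5 to 0.01), 1.68-fold lower (edgeR adjusted p = 0.668; limma-voom with quality weights 0.046). KO-TAC exceeded control by 0.58 (-0.18 to 1.33; edgeR adjusted p = 0.858).

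RefSeq's promoter table for GRCm38.p6 held entries for 3 of the 8 markers (Pmp22, Prx and S100b), with 4 start sites for Pmp22. The start sites of Pmp22 are of interest because rodent Pmp22 is known to use separate promoters in myelinating Schwann cells and in other tissues, which a gene count adds together. Shown are the 250 bases before the start of Prx, the other marker that separated TAC from control upwards, and before the first 2 starts of Pmp22, each 5′ to 3′ on the plus strand. Capitals mark CCAAT and GGGCGG on either strand, common promoter letters chosen after the values were seen.
Prx, chr7:27499074-27499323: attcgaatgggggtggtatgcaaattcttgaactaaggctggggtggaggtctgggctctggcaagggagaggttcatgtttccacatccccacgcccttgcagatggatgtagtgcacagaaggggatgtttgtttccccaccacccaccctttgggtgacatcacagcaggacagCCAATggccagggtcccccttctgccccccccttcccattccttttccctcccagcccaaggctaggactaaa
Pmp22, first start, chr11:63128732-63128981: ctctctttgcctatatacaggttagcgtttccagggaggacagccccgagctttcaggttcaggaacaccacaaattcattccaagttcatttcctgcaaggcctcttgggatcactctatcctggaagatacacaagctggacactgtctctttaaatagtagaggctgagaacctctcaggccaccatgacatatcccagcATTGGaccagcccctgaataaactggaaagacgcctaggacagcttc
Pmp22, second start, chr11:63131207-63131456: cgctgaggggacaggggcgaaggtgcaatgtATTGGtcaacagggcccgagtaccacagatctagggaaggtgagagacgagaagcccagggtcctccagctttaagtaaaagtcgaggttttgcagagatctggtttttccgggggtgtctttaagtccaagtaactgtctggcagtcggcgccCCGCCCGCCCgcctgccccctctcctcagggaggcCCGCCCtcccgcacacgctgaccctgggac

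Each of the windows shown held CCAAT or its complement, as did 33.8% of 32851 promoter windows of that length. GGGCGG or its complement stood 3 times before the second start of Pmp22, 2 of them overlapping, and in neither other window, beside 32.7% of all windows with at least 1 match. TATAAA, held by 12.4% of all windows, was in none of them. The windows not shown differed. Before the later Pmp22 starts, at chr11:63132319-63132568 and chr11:63132553-63132802, there was no CCAAT or complement. GGGCGG or its complement stood 3 times in chr11:63132553-63132802. The S100b window held CCAAT or its complement 2 times and no GGGCGG. The SOX letters ACAAAG and ACAATG, searched on both strands, were in 0 of the 6 windows of the 3 markers, beside 25.2% of all windows with either. A match or its absence here describes these letters in this window only.

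Kcna1 (chromosome 6, 126640397 to 126646384, minus strand) encodes a voltage-gated potassium channel best known from axons, where it sits beside the node in complexes with Kcna2. Kcna1 had 0.331, 0 and 0.399 CPM in KO-TAC hearts, 0.758, 0.296 and 0.266 CPM in TAC hearts and 0.659, 0.628 and 1.12 CPM in control hearts. KO-TAC replicate 2 had no count, which allows up to 0.0422 CPM. All KO-TAC hearts lay below all control hearts, and TAC replicate 1 reached into the control range. The log2 difference of KO-TAC from control was -1.70 with an interval of -3.97 to 0.56 (edgeR adjusted p = 0.858), the widest of the 8. Limma-voom with quality weights gave -4.57 (adjusted p = 0.0664) for this gene with a count of 0. Kcna2, of the list of axon genes, was at 1.05 ± 0.441 CPM in KO-TAC, 0.956 ± 0.362 CPM in TAC and 3.07 ± 0.312 CPM in control hearts (SD, n = 3). Both operated groups lay below control without overlap, as they did for 6.8% of all genes. Kcna2 was 2.92-fold lower in KO-TAC (edgeR adjusted p = 0.801) and 3.2-fold lower in TAC (edgeR adjusted p = 0.136).

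**Figure D2:**
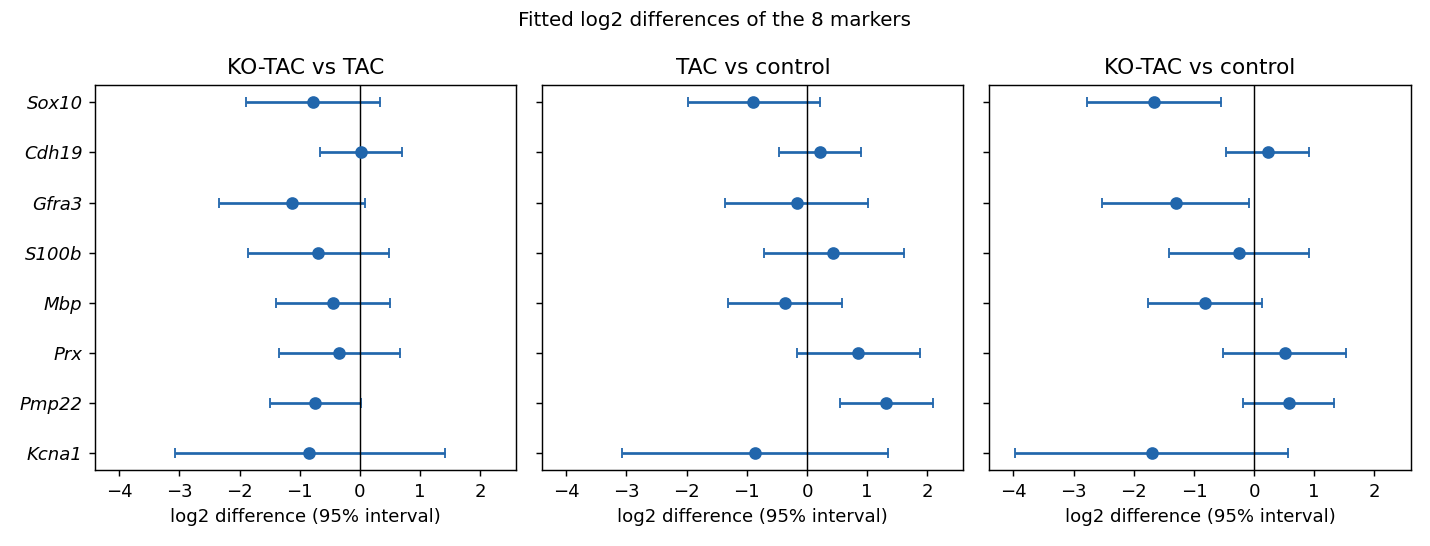
Log2 differences of the 8 markers from the edgeR fit to all 9 libraries (points) with 95% intervals (bars), for KO-TAC against TAC, TAC against control and KO-TAC against control. The vertical line is no difference. The interval of Pmp22 in TAC against control (0.55 to 2.09) and those of Sox10 (-2.78 to -0.55) and Gfra3 (-2.52 to -0.08) in KO-TAC against control leave out 0.

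KO-TAC against TAC asks what the fibroblast deletion of Myc goes with in operated hearts. Of the 8 markers 7 were lower and Cdh19 was higher (50.8% of all genes were higher), and their median log2 difference was -0.72, beside 0.01 over all genes. This split was not particular to them: fibroblast and endothelial markers, described below, each had 7 of 8 lower and 1 higher. Macrophage markers had 4 lower and 4 higher, and all 8 cardiomyocyte markers were higher. In all 8 Schwann cell markers the groups overlapped, where 4.8% of all genes separated as lower and 5.17% as higher. None of the 8 had an unadjusted edgeR p under 0.05, which 4.51% of all genes had as lower and 2.94% as higher. DESeq2 called 0 of the 8, beside 0.404% of all genes as higher and 0.614% as lower. Limma-voom with quality weights called Pmp22 alone as lower, beside 3.3% of all genes as higher and 1.93% as lower. The markers were unevenly spread within the KO-TAC group: replicate 2 was the lowest of the 3 for 6 of the 8 (Mbp, Sox10, Kcna1, S100b, Gfra3 and Prx), as it was for 28.1% of all genes, and replicate 1 was the highest for 6, as it was for 40.6% of all genes.

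TAC against control asks what pressure load goes with in wild-type hearts, with no time given for the control hearts. 4 markers were higher (Pmp22, Prx, S100b and Cdh19) and 4 lower (Sox10, Kcna1, Mbp and Gfra3), where 51.5% of all genes were higher, and the median log2 difference was 0.02, beside 0.03 over all genes. Pmp22 and Prx separated as higher and Sox10 as lower, where 14.1% and 14% of all genes did so. Pmp22 was the 1 marker with an unadjusted p under 0.05 (13.2% of genes as higher, 8.08% as lower). DESeq2 called Pmp22, beside 5.67% of all genes as higher and 2.87% as lower. Limma-voom with quality weights called Pmp22 as higher and Sox10 as lower (adjusted p = 0.00778), beside 18.2% and 19.8% of all genes. Its weights were 2.48, 0.204 and 0.156 for TAC replicates 1, 2 and 3, and replicate 1, which counted most, was the heart with the least Sox10.

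KO-TAC against control had 5 markers lower and 3 higher (Pmp22, Prx and Cdh19), where 53.8% of all genes were higher, with a median of -0.53, beside 0.04 over all genes. Sox10, Mbp and Kcna1 separated as lower and none as higher, where 13.6% and 12.9% of all genes did so. Sox10 and Gfra3 had an unadjusted p under 0.05 (2.24% of all genes as lower, 3.52% as higher). DESeq2 called 0 of the 8, beside 0.304% of all genes as higher and 0.163% as lower. Limma-voom with quality weights called Sox10 (adjusted p = 0.0329) and Mbp (adjusted p = 0.0489) as lower, beside 2.4% of all genes as higher and 2.8% as lower. Its weights were 0.478, 2.37 and 0.833 for KO-TAC replicates 1, 2 and 3. Replicate 2, which counted most, was the lowest of its group for both genes. Without that heart the edgeR log2 difference was -0.55 for Mbp and -1.6 for Sox10. This comparison shares its KO-TAC hearts with KO-TAC against TAC and its control hearts with TAC against control, so the 3 sets of values are not independent.

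Other cell types moved in the same hearts. The fibroblast markers summed to 1896, 1781 and 1615 CPM in KO-TAC hearts, 2898, 1393 and 3325 CPM in TAC hearts and 1288, 1458 and 1470 CPM in control hearts. The endothelial markers summed to 901, 871 and 1000 CPM in KO-TAC, 1320, 766 and 1655 CPM in TAC and 851, 853 and 880 CPM in control hearts. Among the TAC hearts replicate 3 was the highest, replicate 1 next and replicate 2 the lowest in both lists. Pmp22, Prx, S100b and Cdh19 stood in that order within the TAC group too. Among the KO-TAC hearts the fibroblast and endothelial sums had different orders. There Pmp22 and Cdh19 had the order of the fibroblast sum, S100b that of the endothelial sum and Prx neither. Over all genes, TAC replicate 3 was the highest of its group for 38.7% and replicate 2 the lowest for 41.5%. Cardiomyocyte markers summed to 37258, 51967 and 62109 CPM in KO-TAC, 34163, 72475 and 11440 CPM in TAC and 69135 to 70903 CPM in control hearts, and macrophage markers to 235 to 394, 216 to 442 and 233 to 252 CPM in the same groups. Sox10 did not take the order of the fibroblast sum, with its lowest value in TAC replicate 1. Neither did Mbp, Gfra3 and Kcna1, with their lowest TAC values in replicate 3. In the list counts, fibroblast markers were higher in 8 of 8 and endothelial markers in 7 of 8 in TAC against control (medians 0.65 and 0.58), macrophage markers in 4 of 8 (0.19), and cardiomyocyte markers were lower in 8 of 8 (-0.65). KO-TAC against TAC had fibroblast, endothelial, macrophage and cardiomyocyte medians of -0.33, -0.44, -0.15 and 0.33. No gene of these lists passed, and the part of these cell types in the marker values was not tested.

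**Figure D3:**
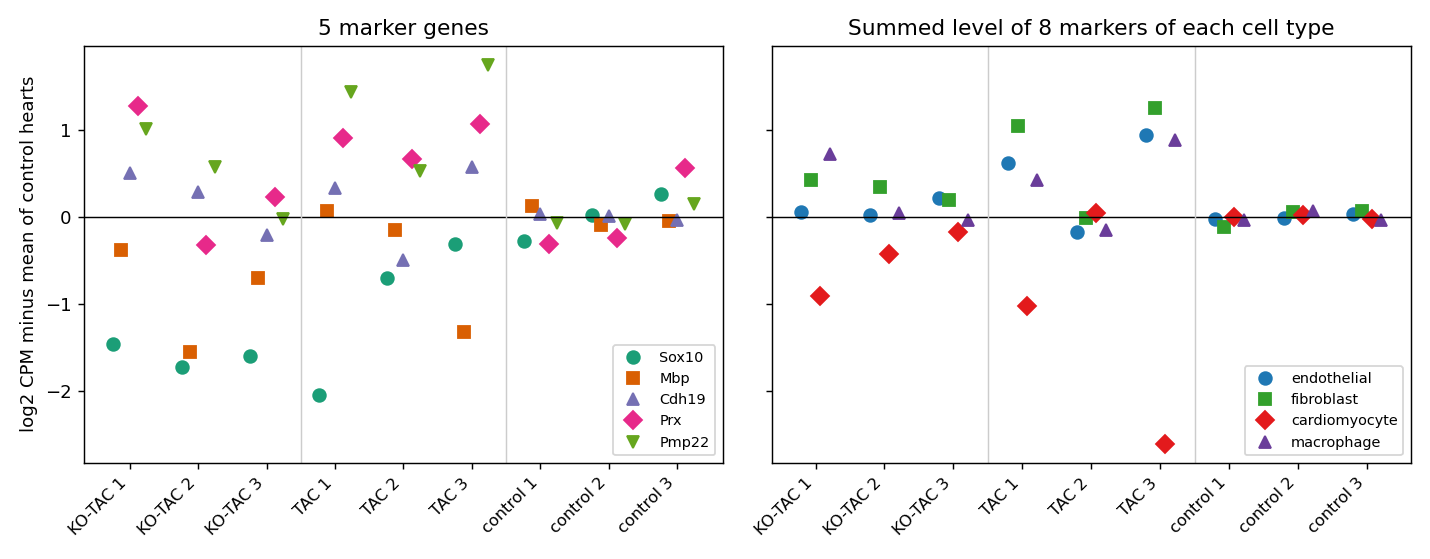
Log2 CPM of 5 markers (left) and log2 of the summed CPM of 8 markers of each of 4 cell types (right) in every heart, as the difference from the mean of the control hearts (vertical axes). Hearts are grouped as KO-TAC, TAC and control. In TAC replicates 1, 2 and 3 the Pmp22 difference was 1.44, 0.53 and 1.75 and that of the fibroblast sum 1.05, -0.01 and 1.25, while Sox10 was at -2.05, -0.7 and -0.31.

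Further Schwann cell genes were mixed as well. Of 18 genes of myelin and myelinating Schwann cells 12 were tested, and none passed. In KO-TAC against TAC 4 were higher and 8 lower (median -0.26), in TAC against control 6 and 6 (-0.08) and in KO-TAC against control 6 and 6 (0). Mpp6, Mal and Cnp were among the members with the highest CPM. Mal, a myelin and lymphocyte membrane protein, was at 17.1 ± 5.25 CPM in KO-TAC, 6.95 ± 6.59 CPM in TAC and 17.4 ± 1.12 CPM in control hearts (SD, n = 3). It was lower in each TAC heart than in each control heart (2.51-fold, edgeR adjusted p = 0.226), as were 14% of all genes. Mal was at 4.15, 14.5 and 2.22 CPM in TAC replicates 1, 2 and 3, an order shared with the cardiomyocyte sum. TAC replicate 2 was the highest of its group for 36.8% of all genes and replicate 3 the lowest for 39.3%. Mpp6, a scaffold protein, was at 34.9 ± 3.92 CPM in KO-TAC, 26.5 ± 13.9 CPM in TAC and 35 ± 1.78 CPM in control hearts. Cnp, an enzyme of myelin-forming cells, was at 7.01 ± 0.855 CPM in KO-TAC, 7.51 ± 2.5 CPM in TAC and 6.95 ± 0.78 CPM in control hearts, differences smaller than the spread between hearts. Egr2, the partner of Sox10 on myelin genes and also an immediate early gene of many cells, was at 1.08, 0.562 and 0.695 CPM in KO-TAC, 9.41, 0.967 and 5.95 CPM in TAC and 0.75, 0.429 and 0.682 CPM in control hearts.

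Of 18 genes of the Schwann lineage and of non-myelinating cells 17 were tested, and none passed. In KO-TAC against TAC 5 were higher and 12 lower (median -0.66), in TAC against control 11 and 6 (0.34) and in KO-TAC against control 5 and 12 (-0.26). Scn7a, a sodium channel of non-myelinating Schwann cells, was at 24.2 ± 5.46 CPM in KO-TAC, 39.8 ± 23.1 CPM in TAC and 22.9 ± 1.68 CPM in control hearts (SD, n = 3). Gpm6b was at 17.1 ± 5.76, 18.8 ± 5.06 and 13.6 ± 1.6 CPM and Matn2 at 15.7 ± 3.97, 20.5 ± 4.31 and 17 ± 0.874 CPM in these groups. Erbb3, the receptor through which axonal neuregulin reaches Schwann cells, went the other way: it was at 11.8 ± 2.14 CPM in KO-TAC, 8.4 ± 3.79 CPM in TAC and 16.6 ± 1.45 CPM in control hearts. Every operated heart had less Erbb3 than every control heart, 1.98-fold in TAC (edgeR adjusted p = 0.149) and 1.41-fold in KO-TAC (edgeR adjusted p = 0.858). Sox10 and Erbb3 were thus both below the control range in all 6 operated hearts, as were 6.8% of all genes, with different hearts lowest. Within each operated group Erbb3 had the order of the cardiomyocyte sum, with 10.2, 11 and 14.3 CPM in KO-TAC replicates 1, 2 and 3 and 7.48, 12.6 and 5.15 CPM in TAC replicates 1, 2 and 3, and the part of cardiomyocytes in it was not tested.

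**Figure D4:**
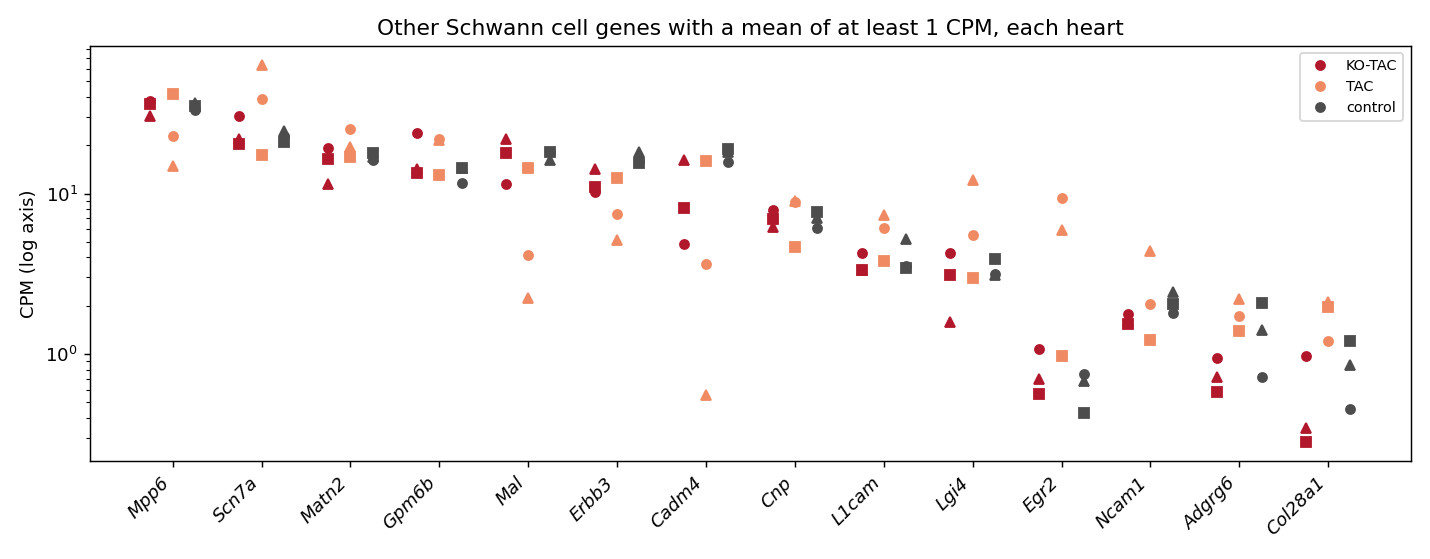
CPM (log axis) of 14 further Schwann cell genes with a mean of at least 1 CPM over the 9 hearts. For each gene KO-TAC, TAC and control hearts run from left to right, and circles, squares and triangles are replicates 1, 2 and 3. Erbb3 lies lower in all operated hearts than in control hearts, while Scn7a reaches 63.5 CPM in TAC replicate 3.

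Of 15 genes of repair Schwann cells and trophic factors 12 were tested, and none passed. They were higher in 5 and lower in 7 in KO-TAC against TAC (median -0.52), 6 and 6 in TAC against control (0.22) and 5 and 7 in KO-TAC against control (-0.09). Bdnf, a growth factor of neurons, was at 6.4 ± 1.78 CPM in KO-TAC, 5.23 ± 1.47 CPM in TAC and 9.04 ± 1.21 CPM in control hearts (SD, n = 3). It was below control in every TAC heart (1.73-fold, edgeR adjusted p = 0.184), as were 14% of all genes. Gfra1, the relative of Gfra3 that binds Gdnf, was at 7.48 ± 2.69 CPM in KO-TAC, 3.85 ± 2.51 CPM in TAC and 8.26 ± 0.678 CPM in control hearts. Shh, a gene of injured-nerve Schwann cells, had no count in any library.

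Genes of the axons that Schwann cells ensheath were mostly too low to test: 9 of 20 were tested, none passed, and Chat and Chrna3 had no count in any library. Transcripts of neurons sit mainly in cell bodies, and the labels do not say whether cardiac ganglia were in the tissue. Th, the first enzyme of noradrenaline synthesis, had counts in TAC replicate 3 alone. In KO-TAC against TAC 3 of the tested genes were higher and 6 lower (median -0.24), in TAC against control 5 and 4 (0.72) and in KO-TAC against control 4 and 5 (-0.33). Uchl1, a deubiquitinase of neurons, was at 9.58 ± 4.32 CPM in KO-TAC, 17.6 ± 10 CPM in TAC and 4.81 ± 0.264 CPM in control hearts (SD, n = 3). Stmn2, a regulator of axonal microtubules, was at 9.17 ± 4.61, 14.2 ± 6.59 and 4.55 ± 0.174 CPM, and Tubb3, a neuronal tubulin, at 2.14 ± 1.06, 3.37 ± 2.05 and 1.49 ± 0.0261 CPM in these groups. Uchl1 and Stmn2 were above control in every operated heart (3.66-fold and 3.12-fold in TAC, edgeR adjusted p = 0.136 for each), as 5.36% of all genes were, while Kcna2 was below control in the same hearts. In TAC replicates 1, 2 and 3 Uchl1 was at 19.1, 6.89 and 26.7 CPM, the order of the fibroblast sum. Tubb3, at 4, 1.08 and 5.02 CPM, had that order too. Stmn2, at 18.7, 6.63 and 17.2 CPM, and Kcna2, at 1.32, 0.593 and 0.961 CPM, did not.

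The genes whose profile over the 9 hearts came nearest to each marker were sought among 12466 genes with a mean of at least 1 CPM, by the root mean square difference of centred log2 CPM. Nearest to Pmp22 were Castor1 (0.1), Sh2d3c (0.12) and Bvht (0.14). Nearest to Cdh19 were Mpdu1 (0.08), Ift46 (0.09) and Rap2b (0.09), to Mbp Lsamp (0.24), Stbd1 (0.29) and Arl5b (0.33), and to Prx Piwil2 (0.23), Dynlt1f (0.25) and Pi4k2b (0.26). Other markers were farther off: Pmp22 and Prx differed by 0.44, Pmp22 and Cdh19 by 0.48, and Pmp22 and Mbp by 1.01. Counted from Pmp22, Prx had rank 1978 and Mbp rank 9757 among these genes. Sox10, Gfra3, S100b and Kcna1 had means under 1 CPM and were not compared in this way.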

How the data were processed

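The authors deposited raw counts per gene symbol for 9 heart libraries, whole numbers with no normalization that the values show. Libraries were made with a strand-keeping kit, per the labels' protocols. HISAT2 2.2.1, StringTie 2.2.1 and Trim Galore 0.6.10, the builds GRCm38 and mm10, and DESeq2 1.42.0 are named, per the submitters' processing notes. Not given in the sources used here: the counting tool, its annotation and its strand setting. Members were matched by symbol, with no measured value in the rule, but the set of 8 and the gene lists were put together with earlier results of these data known. Each member had 1 row.

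The main test was edgeR 4.0.16 (R 4.3.3; glmQLFit and glmQLFTest, two-sided) on all 9 libraries in 1 fit, with TMM factors, filterByExpr (minimum count 10) and a threshold of 0.05 on p adjusted by Benjamini-Hochberg over 19051 genes. Intervals of 95% use the fit's t distribution. Log2 CPM used a prior count of 2. Levels per kilobase and positions used GENCODE M21 (GRCm38) merged exons. Named beside the members were, per list, up to 4 genes of highest CPM, since none passed; others in the text (Mag, Gjb1, Artn, Egr2, Th, Shh and the genes near 0) were chosen after their values were seen. A few genes of the lists are not reported here by name, though the list counts include them. A limit for a 0 is 3 counts and covers counting error only. With 3 against 3, an exact permutation p is at least 0.1, so none was computed. Alternatives: DESeq2 1.42.0, RLE or upper-quartile factors, limma-voom with quality weights (limma 3.58.1), no low-count filter, a fit to 2 groups, the replicate number as a block, mitochondrial genes left out, and each library left out.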

Additional observations from a re-analysis of the deposited data

How the results depend on the processing

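Of 408 values of the 8 markers under the alternatives, 387 kept their direction and their side of the threshold, 7 passed where the main value had not and 14 changed sign. None of the main values had passed, so a change of sign could only fall on a difference that had not passed. For Cdh19 in KO-TAC against TAC the value was -0.0015 with RLE, -0.015 with upper-quartile factors, -0.0092 without mitochondrial genes, -0.0016 with DESeq2 and -0.072 with limma-voom, and -0.23 to 0.26 with a library left out. Gfra3 in TAC against control was 0.34 with limma-voom and -0.63 to 0.12 with a library left out. Sox10 in KO-TAC against TAC was 0.22 with limma-voom. With a library left out, Cdh19 in TAC against control ran from -0.038 to 0.46 and Prx in KO-TAC against control from -0.081 (without KO-TAC replicate 1) to 0.85.

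Over all genes, DESeq2 called 194 in KO-TAC against TAC, 1626 in TAC against control and 89 in KO-TAC against control, and limma-voom with quality weights called 996, 7230 and 991. In KO-TAC against control 2 were called with no low-count filter and 30 in a fit to those 2 groups. With a library left out, 0 to 13, 0 to 5477 and 0 to 4 genes were called in the 3 comparisons, the highest of the first 2 ranges without TAC replicate 2 and that of the last without TAC replicate 3. Of the markers, limma-voom called 1, 2 and 2, DESeq2 called 1 in TAC against control, and with a library left out 0 to 1 was called in TAC against control and 0 to 0 in the others. The causes were not tested.

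Fits with the replicate number as a block called 0 genes and 0 markers in each comparison. Deviations of same-numbered KO-TAC and TAC hearts correlated at 0.106, 0.124 and -0.255 over genes, so the numbers were not taken to pair the hearts. These are the numbers in the sample titles. The count columns number the TAC hearts 2 to 4, by which KO-TAC replicates 2 and 3 would go with TAC replicates 1 and 2 (-0.00835 and 0.327), and no block was fitted on that numbering. Of the markers, Sox10, Gfra3, Kcna1 and S100b rest on 0 to 135 counts a library, which limits their precision beside the spread between hearts.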

Other observations

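Dct, a melanocyte enzyme gene, stood apart from the other melanocyte markers. It was at 4.5, 11.2 and 4.71 CPM in KO-TAC hearts, 5.66, 9 and 1.96 CPM in TAC hearts and 3.14, 0.874 and 2.05 CPM in control hearts, while Tyr and Mlana had at most 0.0775 CPM. All KO-TAC hearts exceeded all control hearts (3.35-fold, edgeR adjusted p = 0.851), as they did for 12.9% of all genes. Pmel was the other melanocyte marker with enough counts to be tested. It was at 0.228, 0.197 and 0.18 CPM in KO-TAC hearts, 0.492, 0 and 0.266 CPM in TAC hearts and 0.401, 0.337 and 0.251 CPM in control hearts. For Pmel all KO-TAC hearts lay below all control hearts (1.63-fold, edgeR adjusted p = 0.919), as for 13.6% of all genes. KO-TAC replicate 2, the heart with the most Dct, was the lowest of its group for 6 of the 8 Schwann cell markers, as for 28.1% of all genes. This is 1 heart, and a link between Dct and the markers was not tested.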
